A study of Cricetulus griseus with 6 samples.

Results

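Eukaryotic translation initiation factors (eIFs) were examined in the mRNA of Chinese hamster ovary (CHO) cells after silencing of *Xbp1*. The factors were taken by symbol: every row that begins with Eif and a digit from 1 to 6, without the eIF2 kinases (Eif2ak) and the eIF4E-binding proteins (Eif4ebp), with a mean of at least 0.1 FPKM over the 6 libraries. This gave 44 genes of the 27873 rows in the files, and the 44 that matched the symbols all reached that level. All cells were CHO-T cells, a CHO line that carries mouse T-cadherin (*Cdh13*) from a retroviral vector and was selected with puromycin. Transfection was with an siRNA against *Xbp1* or with a negative control siRNA, each in 3 libraries, and the cells were harvested on the second day after transfection. Polyadenylated RNA was sequenced, and each value is an FPKM, the fragments of a gene per kilobase of exon, relative to all mapped reads. The symbol *Eif3c*, a core subunit of eIF3, was not analysed here.

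Initiation brings the small ribosomal subunit, the initiator Met-tRNA and the mRNA together at a start codon. eIF2 carries the Met-tRNA as a complex with GTP and is recharged by its exchange factor eIF2B. eIF1, eIF1A and eIF5 govern start codon choice, eIF3 is the large scaffold on the small subunit, and eIF4F (the cap-binding protein eIF4E, the scaffold eIF4G and the helicase eIF4A) loads the mRNA. Under stress of the endoplasmic reticulum the kinase PERK (*Eif2ak3*) phosphorylates the alpha subunit of eIF2, which lowers initiation, whereas XBP1 is the transcription factor of the IRE1α branch of the same response.

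The mean level of *Xbp1* itself was 26.8 ± 1.35 FPKM in controls against 1.89 ± 0.440 FPKM in silenced cells (SD, n = 3 each), without overlap. The libraries had similar depth: steps between the lowest FPKM values gave 94.0% to 116% of the depth of control replicate 1. Of the mesenchymal markers *Col1a1* was at 0 in every library, *Vim* had 377 ± 10.7 FPKM in controls and 304 ± 13.2 after silencing, and *Fn1* had 13.1 ± 0.432 and 23.3 ± 0.123 (SD, n = 3 each). Of the epithelial markers *Krt18* was at 0 in every library, *Epcam* had 1.82 ± 0.105 FPKM in controls and 4.72 ± 0.644 after silencing, and *Cdh1* had 0.131 ± 0.0970 and 0.434 ± 0.104 (SD, n = 3 each). Their part in the results below was not tested. Of the ovarian markers *Fshr* and *Lhcgr* were at 0 throughout and *Amh*, *Star* and *Inha* had means between 0.947 and 3.07 FPKM, and the haematopoietic *Ptprc* was at 0 as well. The labels do not say whether the libraries of a condition came from separate cultures, so p-values measure the spread between these libraries only. A lower FPKM in bulk RNA cannot tell fewer expressing cells from less RNA per cell.

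The sum of all FPKM values was lower after *Xbp1* silencing, 597243 ± 3750 (SD, n = 3) against 655927 ± 9851 (SD, n = 3). Abundant genes were shifted downward: the 1063 rows with a mean of at least 100 FPKM had a median log2 fold change of −0.093, against 0.0063 over all 14361 rows tested. This bears on the eIFs, whose median level was 99.0 FPKM. Dividing each library by its sum (TPM) moved the median of all rows to 0.14, and the value under that scaling is given below for genes whose direction or test depended on it.

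The eIF mRNAs changed little in size and in both directions. A log2 fold change of at least 1 in size with a limma adjusted p under 0.05 was reached by 0 of the 44 genes, against 2.69% (higher) and 2.5% (lower) of all rows tested. Of the 1063 rows with a mean of at least 100 FPKM, 1 was called higher and 32 lower. At an unadjusted limma p under 0.05 there were 29 eIF genes (65.9%, against 48.9% of all rows). That share was 62.3% for rows of at least 10 FPKM and 70.5% for rows of at least 100 FPKM. With the adjusted p alone, 16 eIF genes fell, which is 36.4% of them against 20.2% of all rows and 30.2% of rows with a mean of at least 10 FPKM. In the same test 8 rose, which is 18.2% against 20.2% of all rows and 24.1% of rows of at least 10 FPKM. Among rows of at least 100 FPKM, 44.1% fell and 19.0% rose, and of the 21 eIF genes in that range 10 fell and 3 rose. The share of lower genes among the abundant eIFs was thus near that of abundant genes in general. The split turned with the scaling, from 33.3% higher among the eIFs that passed with FPKM to 65.4% (17 higher and 9 lower) with TPM and 62.5% (15 higher and 9 lower) with quantile normalization, and over all rows from 49.9% to 71.0% and 54.0%.

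The median log2 fold change of the eIFs was −0.093, and the values without *Eif4e1b* ran from −0.44 (*Eif3j*) to 0.36 (*Eif4g2*). Relative to the median of all rows it was −0.10 with FPKM and 0.0032 after quantile normalization, and the eIF median itself turned to 0.042 under TPM scaling, which shifts all rows alike. The groups did not overlap for 19 eIF genes that were lower (43.2%, against 25.8% of all rows) and 9 that were higher (20.5%, against 26.1%). To find changes that did not rest on the scaling, the test was repeated with median-ratio scaling, quantile normalization and TPM, a comparison added after the data were seen. Under all 4 scalings 8 eIF genes fell (18.2%, against 12.7% of all rows) and 8 rose (18.2%, against 18.8%). Of rows of at least 10 FPKM 18.3% fell and 23.9% rose in this way. For rows of at least 100 FPKM the shares were 23.5% and 19.0%. The 8 that fell were *Eif2a*, *Eif3a*, *Eif3f*, *Eif3j*, *Eif4a1*, *Eif4b*, *Eif4enif1* and *Eif4g1*. The 8 that rose were *Eif2b5*, *Eif3d*, *Eif3e*, *Eif3i*, *Eif4e2*, *Eif4g2*, *Eif4g3* and *Eif5*. Across the 43 genes with a mean of at least 1 FPKM, Spearman's rho between level and change was −0.0088 and Pearson's r with the log2 level −0.027, as a description only, since these genes share the same 6 libraries.

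**Figure D1:**
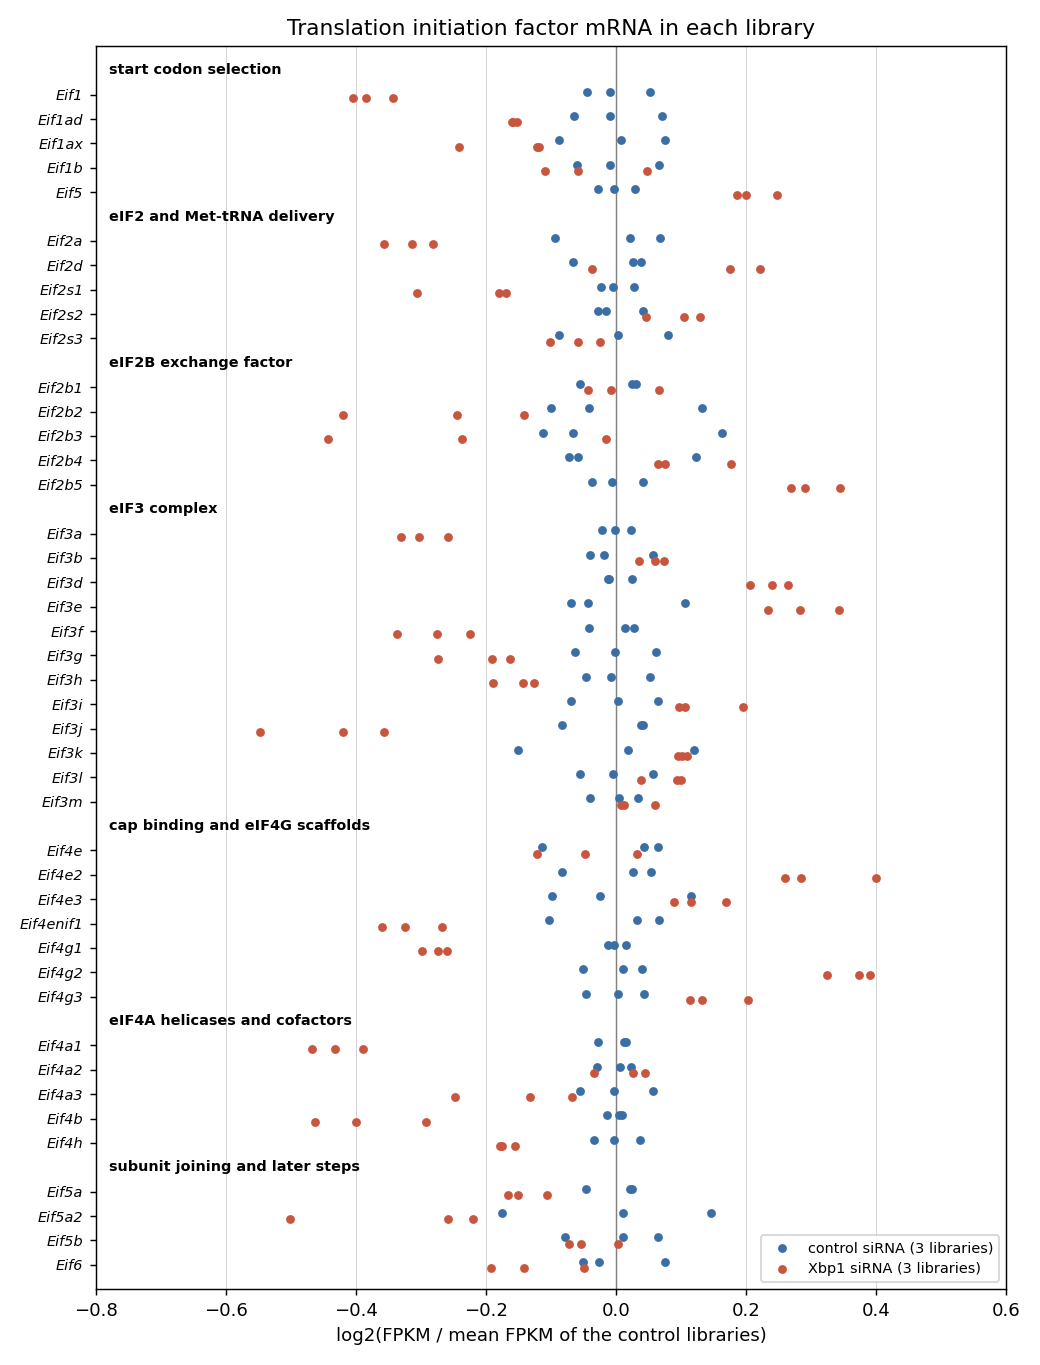
Expression of 43 initiation factors in each library, as log2 of FPKM over the mean of the control libraries, with 1 point per library (blue, control siRNA, n = 3; red, *Xbp1* siRNA, n = 3) and genes grouped by role. *Eif4a1*, *Eif4b*, *Eif3j* and *Eif1* lie to the left of their controls and *Eif4g2*, *Eif4e2* and *Eif2b5* to the right in all 3 libraries. *Eif4e1b*, with a library at 0, is left out.

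Of the 5 eIF4A helicases and cofactors 3 fell and 2 did not pass the test, which is 60% lower against 20.2% of all rows and 44.1% of rows with a mean of at least 100 FPKM, the range of all 5. *Eif4a1*, the main helicase of eIF4F, had 259, 259 and 252 FPKM in controls and 190.1, 196 and 185 after silencing. Every silenced library was below every control, at 74.3% of the control mean (log2 fold change −0.43, standard error 0.032, limma adjusted p = 5.65e-05). Scaling to TPM left −0.29 (adjusted p = 3.18e-04, limma). *Eif4b*, a cofactor that raises helicase activity, had 185, 186 and 183 FPKM in controls and 134, 140 and 151 after silencing, again without overlap. Its log2 fold change was −0.38 (standard error 0.046, limma adjusted p = 4.99e-04). *Eif4h*, a smaller cofactor of the same kind, went from 157 ± 3.94 to 139.8 ± 1.22 FPKM (SD, n = 3 each). It fell by 0.17 on the log2 scale (limma adjusted p = 0.00414), and under TPM scaling it had −0.034 and did not pass the test.

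*Eif4a2*, the close relative of *Eif4a1*, gave a different picture. It had 317, 325 and 329 FPKM in controls and 316, 329 and 334 after silencing, with overlap. Its log2 fold change was 0.012 with a 95% interval from −0.064 to 0.088 (limma adjusted p = 0.798), and 0.15 under TPM scaling, which passed the test (adjusted p = 0.0124, limma). *Eif4a3*, a helicase of the exon junction complex rather than of initiation, had a log2 fold change of −0.15 (95% interval −0.27 to −0.024, limma adjusted p = 0.0596). It was −0.014 under TPM scaling (adjusted p = 0.862, limma), and over the fits without 1 library it ran from −0.19 without *Xbp1* siRNA replicate 1 (adjusted p = 0.0346, limma) to −0.10 without *Xbp1* siRNA replicate 3 (adjusted p = 0.161, limma).

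The eIF4G scaffolds moved apart. *Eif4g1*, the canonical scaffold that binds eIF4E, eIF4A and eIF3, had 252, 247 and 249 FPKM in controls and 208, 203 and 206 after silencing. The libraries did not overlap, and it fell by 0.28 on the log2 scale (standard error 0.028, limma adjusted p = 2.12e-04). *Eif4g2*, which encodes a relative (DAP5) that lacks the eIF4E-binding site and serves cap-independent initiation, had 297, 311 and 317 FPKM in controls and 404, 399.6 and 386 after silencing. It rose to 129% of the control without overlap, with a log2 fold change of 0.36 (standard error 0.035, limma adjusted p = 1.84e-04). On the FPKM scale *Eif4g2* was above *Eif4g1* in every library, by more after silencing. *Eif4g3*, another eIF4G, had 29.7, 31.6 and 30.7 FPKM in controls and 33.6, 33.2 and 35.3 after silencing, without overlap. Its log2 fold change of 0.15 had a limma adjusted p of 0.0356, which lay between 0.0525 and 0.119 without control replicate 1 or 3 or any of the 3 *Xbp1* siRNA replicates. The adjusted p of *Eif4g3* was also 0.0683 without the variance trend and 0.0529 with the replicate block (limma).

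Among the cap-binding proteins, *Eif4e* did not pass the test and *Eif4e2* rose. *Eif4e*, the general cap-binding factor, had 89.0, 99.2 and 101 FPKM in controls and 88.5, 98.5 and 93.1 after silencing. Its log2 fold change was −0.044 with a 95% interval from −0.18 to 0.097 (limma adjusted p = 0.604) and turned to 0.091 under TPM scaling. *Eif4e2*, which encodes a cap-binding protein (4EHP) known as a translational repressor, had 84.8, 86.5 and 78.7 FPKM in controls and 99.8, 110 and 102 after silencing. All silenced libraries were higher, at 125% of the control mean (log2 fold change 0.32, standard error 0.053, limma adjusted p = 0.00251). *Eif4e3*, another family member, had 18.8, 20.7 and 17.9 FPKM in controls and 21.5, 20.3 and 20.7 after silencing (log2 fold change 0.13, 95% interval −0.028 to 0.28, limma adjusted p = 0.171), and 0.26 under TPM scaling (adjusted p = 0.0147, limma).

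*Eif4enif1*, whose product carries eIF4E into the nucleus and into P-bodies, had 25.0, 25.6 and 22.8 FPKM in controls and 19.5, 19.1 and 20.3 after silencing. It fell by 0.31 on the log2 scale without overlap (standard error 0.060, limma adjusted p = 0.00484). *Eif4e1b*, known from oocytes, had 2, 5 and 2 reads in controls and 1, 0 and 3 after silencing when its values were read as multiples of 1 read, too few to detect a difference.

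In eIF3 the subunits split. Of 12 measured subunits 5 fell (*Eif3a*, *Eif3f*, *Eif3g*, *Eif3h*, *Eif3j*), 3 rose (*Eif3d*, *Eif3e*, *Eif3i*) and 4 did not pass the test (*Eif3b*, *Eif3k*, *Eif3l*, *Eif3m*). These are 41.7% lower and 25% higher, against 20.2% of all rows each way and 44.1% and 19.0% of rows with a mean of at least 100 FPKM. Some subunits, such as *Eif3a* and *Eif3j*, had means under 100 FPKM. Of rows of at least 10 FPKM 30.2% fell and 24.1% rose. After scaling to TPM, *Eif3g* (−0.073) and *Eif3h* (−0.018) no longer passed, and the 4 others passed as higher with 0.16 to 0.24, beside a median of 0.14 over all rows. This made 7 higher and 3 lower (58.3% and 25%, against 31.6% and 12.9% of all rows under that scaling). Of rows of at least 10 FPKM 40.6% passed as higher and 18.7% as lower with TPM. For rows of at least 100 FPKM these shares were 37.2% and 26.0%. The summed level of the 12 subunits was 2070 ± 45.7 FPKM in controls and 2061 ± 20.3 FPKM after silencing (SD, n = 3 each), a difference smaller than its spread. As a share of the FPKM sum of each library it was 0.315% ± 0.00223 and 0.345% ± 0.00200 (SD, n = 3 each), without overlap, so that its direction depended on the scaling.

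*Eif3j*, a loosely bound subunit at the decoding site, had 94.6, 103 and 103 FPKM in controls and 68.5, 78.2 and 74.9 after silencing. The groups did not overlap, and it fell to 73.7% of the control (log2 fold change −0.44, standard error 0.059, limma adjusted p = 8.68e-04). *Eif3a*, the largest subunit and the centre of the complex, had 107, 108 and 110.0 FPKM in controls and 86.1, 87.7 and 90.5 after silencing (log2 fold change −0.30, standard error 0.034, limma adjusted p = 4.04e-04). *Eif3f* had 95.1, 96.0 and 91.6 FPKM in controls and 77.8, 74.6 and 80.7 after silencing (log2 fold change −0.28, limma adjusted p = 0.00134). In *Eif3a* and *Eif3f* too the groups did not overlap.

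*Eif3d*, a subunit with a cap-binding activity of its own, had 193, 189 and 189 FPKM in controls and 229, 219 and 225 after silencing (log2 fold change 0.24, standard error 0.030, limma adjusted p = 6.71e-04). *Eif3e*, its neighbour in the complex, had 87.2, 96.7 and 85.6 FPKM in controls and 106, 109 and 114 after silencing (log2 fold change 0.29, standard error 0.055, limma adjusted p = 0.00457). In both genes each silenced library lay above each control. *Eif3i* had 434, 416 and 396 FPKM in controls and 476, 444 and 447 after silencing, and its limma adjusted p of 0.0460 rose to between 0.0631 and 0.134 without control replicate 2 or 3 or any *Xbp1* siRNA replicate. The adjusted p of *Eif3i* was also 0.131 without the variance trend and 0.0650 with no filter (limma).

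**Figure D2:**
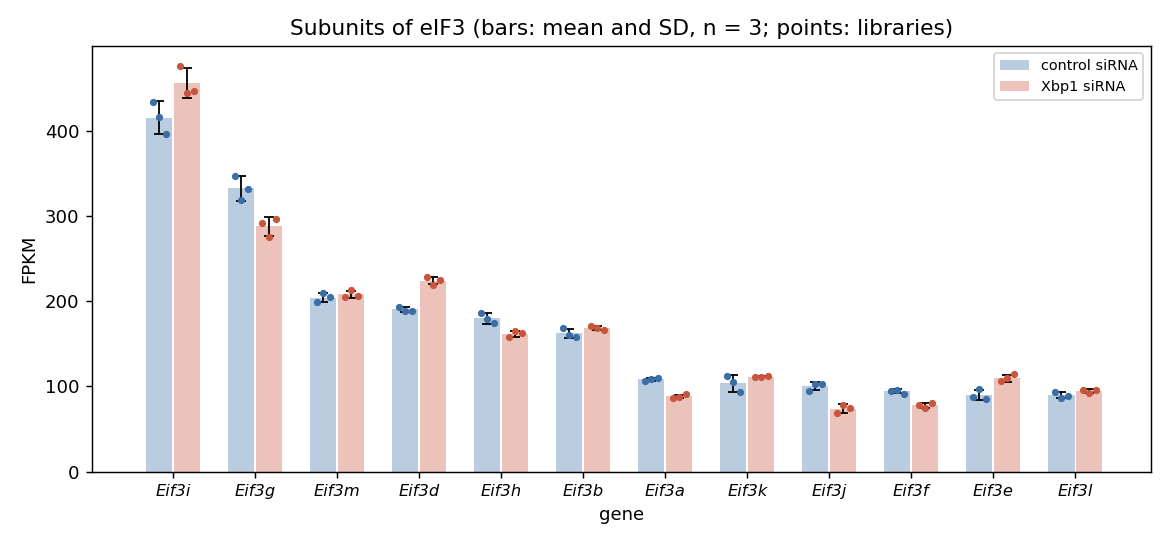
FPKM of the 12 measured eIF3 subunits, ordered by control level, with bars for the mean, error bars for the SD (n = 3) and points for libraries. Control means run from 89.4 FPKM (*Eif3l*) to 415 FPKM (*Eif3i*). *Eif3j*, *Eif3a* and *Eif3f* are lower and *Eif3d* and *Eif3e* higher after silencing, while *Eif3g* and *Eif3h* are lower here but did not pass the test under TPM scaling.

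The subunits of this complex differed more from each other than between conditions. On the FPKM scale, which is per length, *Eif3i* and *Eif3g* stood above the rest with 415 ± 19.2 and 332 ± 14.4 FPKM (SD, n = 3) in controls. *Eif3m*, *Eif3d*, *Eif3h* and *Eif3b* followed between 162 and 204 FPKM, and the other 6 lay between 89.4 and 108 FPKM. Within that last set the control means of *Eif3l* and *Eif3e* differed by less than the SD of either.

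For eIF2 and its partners the changes were small. *Eif2s1*, the alpha subunit that the stress kinases phosphorylate, had 190.1, 192 and 197 FPKM in controls and 156, 170 and 172 after silencing. The libraries did not overlap, and it fell by 0.22 on the log2 scale (standard error 0.043, limma adjusted p = 0.00553), but with TPM scaling it had −0.084 (adjusted p = 0.184, limma) and with quantile normalization −0.094 (adjusted p = 0.159, limma). *Eif2s2*, the beta subunit, had a log2 fold change of 0.093 (95% interval 0.012 to 0.17, limma adjusted p = 0.0671), which passed with 0.23 under TPM scaling (adjusted p = 0.00181, limma), with 0.21 after quantile normalization (adjusted p = 0.00374, limma) and with 0.12 without *Xbp1* siRNA replicate 1 (adjusted p = 0.0463, limma). *Eif2s3*, the GTP-binding gamma subunit, had one of −0.060 (95% interval −0.18 to 0.055, limma adjusted p = 0.376) that turned to 0.075 under TPM scaling. The control levels of the subunits were unequal, at 335 ± 8.53 FPKM for *Eif2s2*, 193 ± 3.40 FPKM for *Eif2s1* and 75.3 ± 4.36 FPKM for *Eif2s3* (SD, n = 3 each).

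*Eif2a* and *Eif2d* encode single-chain proteins that can deliver Met-tRNA without eIF2. *Eif2a*, which is not the alpha subunit of eIF2 despite its symbol, had 58.6, 65.6 and 63.4 FPKM in controls and 48.8, 50.3 and 51.4 after silencing. It fell by 0.32 on the log2 scale without overlap (standard error 0.050, limma adjusted p = 0.00201). *Eif2d* had 44.5 ± 1.75 FPKM in controls and 48.5 ± 4.52 FPKM after silencing (SD, n = 3 each, limma adjusted p = 0.224). *Xbp1* siRNA replicate 2 stood below its other replicates with 43.4 FPKM, and without it the log2 fold change of *Eif2d* was 0.20 (adjusted p = 0.0261, limma), against 0.12 with all libraries. Under TPM scaling it was 0.26 (adjusted p = 0.0173, limma).

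Of the 5 subunits of eIF2B 1 rose, 1 fell and 3 did not pass, which is 20% each way against 20.2% of all rows. *Eif2b5*, the catalytic epsilon subunit, had 32.2, 33.3 and 31.6 FPKM in controls and 41.1, 39.6 and 39.0 after silencing. Each silenced library was higher, at 123% of the control (log2 fold change 0.30, standard error 0.043, limma adjusted p = 0.00119). *Eif2b2*, a regulatory subunit, went from 66.6 ± 5.65 to 55.5 ± 5.34 FPKM (SD, n = 3 each) and fell by 0.27 on the log2 scale (limma adjusted p = 0.0406). That p lay between 0.0745 and 0.111 when control replicate 1 or 2, or silenced replicate 2 or 3, was left out, and it was 0.219 under TPM scaling. *Eif2b1*, *Eif2b3* and *Eif2b4* had overlapping groups and log2 fold changes of 0.0054, −0.23 and 0.11 (limma adjusted p = 0.946, 0.176 and 0.226), of which *Eif2b4* passed under TPM scaling with 0.24 (adjusted p = 0.0221, limma).

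Of the factors for start codon choice, *Eif1* and *Eif5* moved in opposite directions. *Eif1*, the most abundant eIF mRNA, had 867, 903 and 845 FPKM in controls and 658, 687 and 668 after silencing. It fell to 77.0% of the control without overlap (log2 fold change −0.38, standard error 0.035, limma adjusted p = 1.47e-04), and had −0.24 under TPM scaling but only −0.028 (adjusted p = 0.639, limma) after quantile normalization. *Eif5*, which makes eIF2 hydrolyse its GTP at the start codon, had 60.6, 62.0 and 59.6 FPKM in controls and 72.1, 69.7 and 69.1 after silencing (log2 fold change 0.21, standard error 0.036, limma adjusted p = 0.00273). In *Eif5* all silenced libraries were above the controls. *Eif1b*, a close relative of *Eif1*, had 143, 138 and 151 FPKM in controls and 134, 149 and 139 after silencing, with overlap (log2 fold change −0.039, 95% interval −0.16 to 0.081, limma adjusted p = 0.588), and had 0.096 under TPM scaling.

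*Eif1ax*, which encodes eIF1A, had a log2 fold change of −0.16 (limma adjusted p = 0.0539), −0.024 under TPM scaling (adjusted p = 0.785, limma), −0.097 after quantile normalization (adjusted p = 0.246, limma) and −0.20 without control replicate 1 (adjusted p = 0.0257, limma). *Eif1ad*, which encodes a protein with an eIF1A-like domain, fell by 0.16 on the log2 scale (limma adjusted p = 0.0148) and had −0.021 under TPM scaling, where it did not pass.

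The late factors showed no change that held under each scaling. *Eif5b*, the GTPase that joins the subunits, had 34.9 ± 1.73 FPKM in controls and 33.9 ± 0.921 FPKM after silencing (SD, n = 3 each, log2 fold change −0.040, 95% interval −0.16 to 0.078, limma adjusted p = 0.571, 0.095 under TPM scaling). *Eif6*, which keeps the large subunit from joining too early, had −0.13 (limma adjusted p = 0.0763) with FPKM, 0.0085 under TPM scaling, 0.031 after quantile normalization, and −0.17 without *Xbp1* siRNA replicate 1 (adjusted p = 0.0367, limma). *Eif5a*, the hypusine-bearing factor of elongation and termination, had 641, 642 and 612 FPKM in controls and 563, 587 and 569 after silencing. It was lower with FPKM (log2 fold change −0.14, limma adjusted p = 0.0113), near 0 with TPM (−0.0055) and higher after quantile normalization (0.14, adjusted p = 0.00824, limma), so its direction depended on the scaling. *Eif5a2*, its weakly expressed relative, had 7.38, 8.40 and 9.22 FPKM in controls and 6.96, 7.16 and 5.89 after silencing (log2 fold change −0.32, limma adjusted p = 0.0630). It had −0.18 under TPM scaling (adjusted p = 0.276, limma), −0.35 after quantile normalization (adjusted p = 0.0407, limma) and −0.40 without control replicate 1 (adjusted p = 0.0358, limma).

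**Figure D3:**
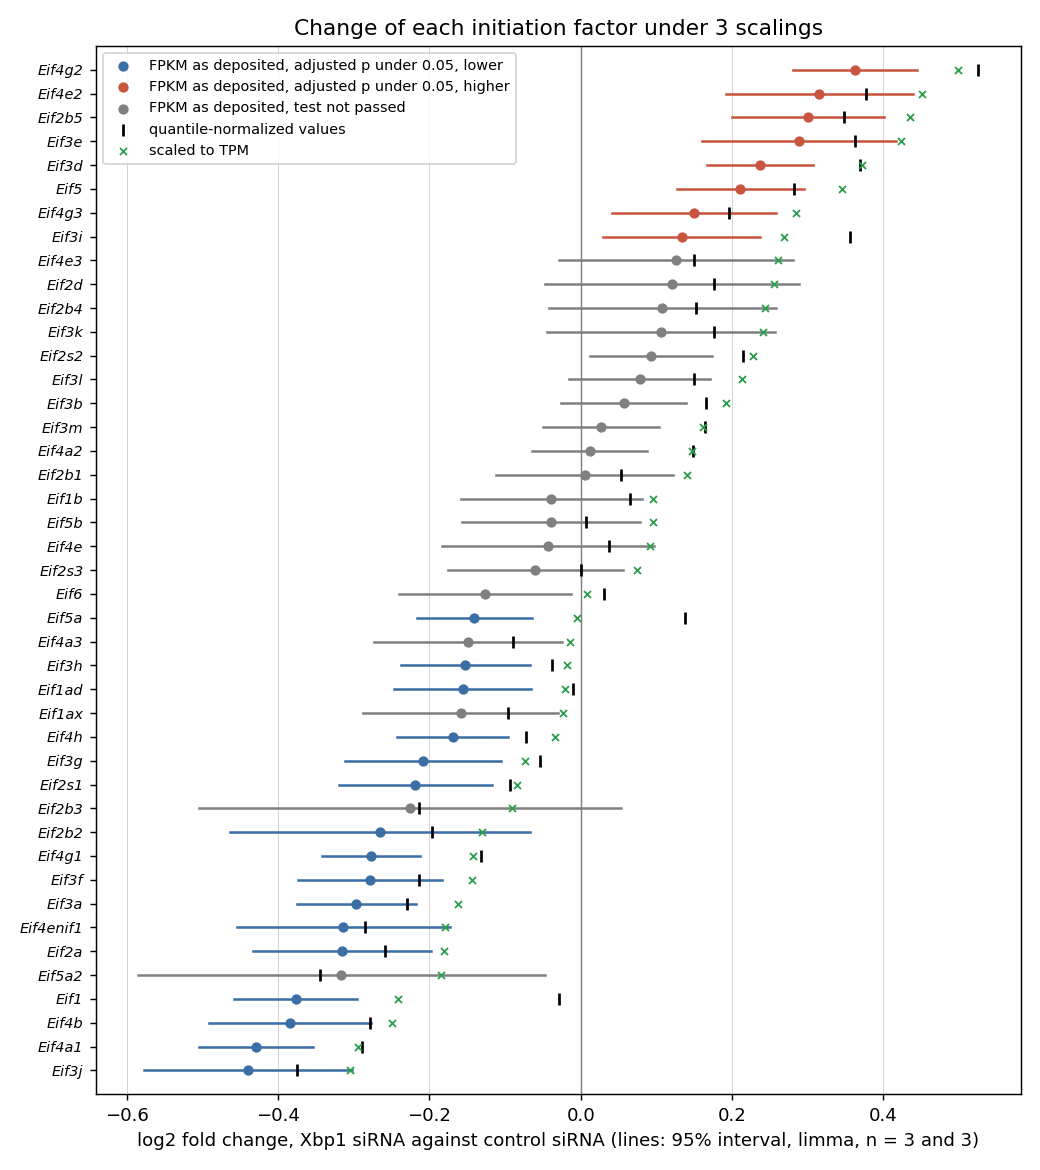
Log2 fold change of 43 initiation factors with FPKM as deposited (points with limma's 95% intervals, n = 3 and 3; red passed as higher, blue as lower, grey did not pass), after quantile normalization (black ticks) and after scaling to TPM (green crosses). *Eif4a1*, *Eif4b* and *Eif3j* stay below 0 and *Eif4g2*, *Eif4e2* and *Eif2b5* above 0 under each, whereas *Eif5a* moves from −0.14 to 0.14 and *Eif1* from −0.38 to −0.028 with quantile normalization.

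Ratios of related genes within a library do not depend on scaling by a common factor. Quantile normalization is not such a scaling, and ratios after it were not computed. It brought the log2 fold changes of *Eif1* and *Eif1b* closer together, from −0.38 and −0.039 to −0.028 and 0.065. Those of *Eif5a* and *Eif5a2* moved apart, from −0.14 and −0.32 to 0.14 and −0.35. The ratio of *Eif4g1* to *Eif4g2* was 0.847, 0.795 and 0.784 in controls and 0.514, 0.507 and 0.534 after silencing. This was the largest shift of the 7 pairs compared, a difference of −0.64 on the log2 scale, and every silenced library was below every control. The ratio of *Eif4g1* to *Eif4g3* was 8.13 ± 0.333 in controls and 6.04 ± 0.183 after silencing (SD, n = 3 each), a log2 difference of −0.43.

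The ratio of *Eif4a1* to *Eif4a2* was 0.817, 0.796 and 0.765 in controls and 0.602, 0.594 and 0.556 after silencing (log2 difference −0.44). That of *Eif1* to *Eif1b* went from 6.05 ± 0.466 to 4.78 ± 0.159 (SD, n = 3 each, log2 difference −0.34). That of *Eif4e* to *Eif4e2* went from 1.16 ± 0.116 to 0.900 ± 0.0158 (SD, n = 3 each, log2 difference −0.36), so that *Eif4e* was above *Eif4e2* in each control library and below it in each silenced library. For these 5 pairs the groups did not overlap, and a permutation test (exact, two-sided, 3 libraries a condition) gave p = 0.10, the smallest that the design allows (0.14 adjusted over the 7 pairs). Among single genes, 25.8% of all rows were lower and 26.1% higher without overlap, and no such share was computed for ratios. Pairs that share *Eif4g1* or *Eif4e* are not independent of each other.

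The ratios of *Eif4e* to *Eif4e3* and of *Eif5a* to *Eif5a2* had overlapping groups, with log2 differences of −0.17 and 0.18 (exact permutation p = 0.30 and 0.40). For relatives that share sequence the split of reads is uncertain, since how reads that match several genes were divided is not given in the sources used here.

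**Figure D4:**
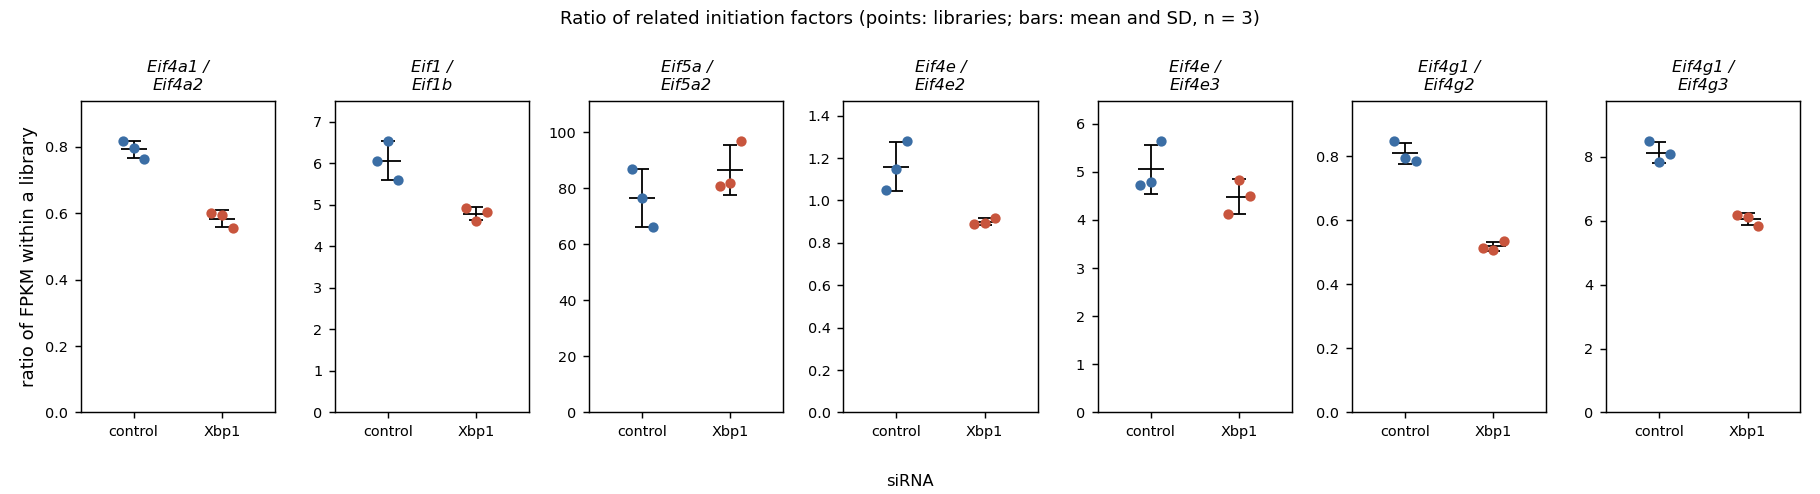
Ratio of the FPKM of related initiation factors within each library (points; black bars, mean and SD, n = 3), for control and *Xbp1* siRNA, each panel with its own axis from 0. The ratios of *Eif4a1* to *Eif4a2*, *Eif1* to *Eif1b*, *Eif4e* to *Eif4e2* and *Eif4g1* to both relatives are lower after silencing without overlap, and those of *Eif5a* to *Eif5a2* and *Eif4e* to *Eif4e3* overlap.

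Summed by role, the FPKM after silencing was 83.7% of the control for the start codon factors, 87.0% for the eIF4A helicases and cofactors, 91.1% for the late factors, 97.7% for eIF2 and Met-tRNA delivery, 98.0% for eIF2B, 99.6% for eIF3 and 108% for the cap-binding and eIF4G genes. As shares of the FPKM sum of each library the same roles came to 91.9%, 95.6%, 100.1%, 107%, 108%, 109% and 118% of the control. Single genes carried part of some of these sums, but not of all. The start codon factors went from 1393 ± 26.5 to 1166 ± 24.0 FPKM, and without *Eif1* from 521 ± 6.18 to 494 ± 9.23 FPKM (SD, n = 3 each), which is 94.8% of the control in FPKM and 104% as a share. The cap-binding and eIF4G genes went from 812 ± 13.0 to 874 ± 10.1 FPKM, and without *Eif4g2* from 503 ± 6.67 to 477 ± 6.35 FPKM (SD, n = 3 each), which is 94.8% and 104%. The eIF4A group went from 1044 ± 5.61 to 908 ± 11.3 FPKM (SD, n = 3 each), and without *Eif4a1* it came to 91.2% in FPKM and 100.1% as a share. Without *Eif5a* the late factors stayed at 91.9% in FPKM and 100.9% as a share. As shares, eIF2 and Met-tRNA delivery without *Eif2s1* came to 112%, eIF2B without *Eif2b2* to 117% and eIF3 without *Eif3g* to 112%. All eIFs together had 7211 ± 92.9 FPKM in controls and 6793 ± 28.9 FPKM after silencing (SD, n = 3 each), but 1.10% ± 0.00921 and 1.14% ± 0.0101 of the FPKM sum, so that this direction too depended on the scaling (permutation p = 0.10 for each, exact and two-sided, the smallest possible here).

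Genes that regulate initiation were taken from a list of kinases, phosphatases, binding proteins and helicases, of which 25 were tested. With the adjusted p of limma 7 fell and 4 rose (28.0% and 16.0%), against 20.2% of all rows each way, with a median log2 fold change of −0.026. With the fold limit 1 was called lower and 1 higher (4% each, against 2.5% and 2.69% of all rows). Under TPM scaling the balance turned, with 10 higher and 5 lower (40% and 20%, against 31.6% and 12.9% of all rows). Of rows with a mean of at least 10 FPKM 24.1% rose and 30.2% fell with FPKM, and 40.6% and 18.7% with TPM. *Ppp1r15b*, the constitutive partner of the phosphatase that restores eIF2 alpha, had 24.4, 24.4 and 24.9 FPKM in controls and 12.2, 10.7 and 12.5 after silencing. It fell to 48.0% of the control (log2 fold change −1.06, standard error 0.070, limma adjusted p = 3.17e-05), and had −0.92 under TPM scaling, which passed the adjusted p but not the fold limit. Without *Xbp1* siRNA replicate 2 it had −0.99, also under the fold limit. Its stress-induced counterpart *Ppp1r15a*, like *Eif2ak1*, *Eif2ak4* and *Eif4ebp1* below, was named after the values were seen. It had 143 ± 3.71 and 133 ± 3.47 FPKM (SD, n = 3 each, limma adjusted p = 0.0565), with a log2 fold change of −0.10 that turned to 0.035 under TPM scaling.

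The eIF2 kinases were not alike. *Eif2ak3*, the gene of PERK, had 5.79, 6.40 and 5.43 FPKM in controls and 8.72, 7.63 and 8.94 after silencing, a rise of 0.51 on the log2 scale without overlap (standard error 0.099, limma adjusted p = 0.00512). *Eif2ak2*, the kinase activated by double-stranded RNA, had 1.59, 1.37 and 0.696 FPKM in controls and 2.07, 2.62 and 3.00 after silencing, without overlap. It rose by 1.07 on the log2 scale (standard error 0.30, limma adjusted p = 0.0252). That call was lost after quantile normalization (0.96) and without control replicate 3 (0.74), where *Eif2ak2* came under the fold limit, and without *Xbp1* siRNA replicate 2 (1.05, adjusted p = 0.0701, limma) or replicate 3 (0.95, adjusted p = 0.0852, limma). It was also lost with the replicate block (adjusted p = 0.0520, limma) and without the variance trend (adjusted p = 0.0532, limma), and with a pseudocount of 1 the change was 0.70. *Eif2ak1* and *Eif2ak4* had log2 fold changes of −0.050 and 0.15 (limma adjusted p = 0.468 and 0.109), and under TPM scaling 0.085 and 0.28, where *Eif2ak4* passed (adjusted p = 0.0132, limma).

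The eIF4E-binding proteins, which block eIF4E when they are not phosphorylated, moved in opposite directions. *Eif4ebp1* had 454, 430.2 and 433 FPKM in controls and 335, 335 and 326 after silencing (log2 fold change −0.40, standard error 0.032, limma adjusted p = 7.32e-05). Every silenced library was below every control. *Eif4ebp2* had 49.0, 50.2 and 51.3 FPKM in controls and 68.9, 69.6 and 68.4 after silencing (log2 fold change 0.46, standard error 0.035, limma adjusted p = 5.91e-05). On the FPKM scale *Eif4ebp1* stayed the more abundant mRNA in each library.

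Of 16 genes for elongation and termination 6 fell and 2 rose with limma's adjusted p (37.5% and 12.5%, against 20.2% of all rows each way), with a median log2 fold change of −0.031. Under TPM scaling 2 fell and 7 rose (12.5% and 43.8%, against 12.9% and 31.6% of all rows). Of rows with a mean of at least 10 FPKM 30.2% fell and 24.1% rose with FPKM, and 18.7% and 40.6% with TPM. *Hbs1l*, whose product rescues stalled ribosomes, had 71.7, 74.3 and 74.4 FPKM in controls and 34.6, 40.2 and 38.0 after silencing (log2 fold change −0.97, standard error 0.058, limma adjusted p = 2.15e-05). *Eef2k*, the kinase that inhibits elongation factor eEF2, had 8.11, 8.83 and 8.34 FPKM in controls and 15.2, 13.5 and 14.8 after silencing (log2 fold change 0.78, standard error 0.073, limma adjusted p = 1.60e-04). Both genes had no overlap between the conditions, and no eIF that passed the test had a log2 fold change of that size.

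*Dohh*, which completes the hypusine of eIF5A, fell by 0.36 on the log2 scale (limma adjusted p = 0.0162), with adjusted p of 0.0554 and 0.0514 (limma) without *Xbp1* siRNA replicate 2 or 3 and 0.0621 under TPM scaling. *Eefsec*, the elongation factor for selenocysteine, fell by 0.38 on the log2 scale (limma adjusted p = 0.0225), with adjusted p of 0.0675 to 0.0763 (limma) when control replicate 1 or 2, or silenced replicate 2 or 3, was left out, and of 0.0902 under TPM scaling. Of 21 cytosolic aminoacyl-tRNA synthetases, which charge the tRNAs, 12 fell and 3 rose (57.1% and 14.3%), with a median log2 fold change of −0.13. Of all rows 20.2% fell and 20.2% rose, and of rows with a mean of at least 10 FPKM 30.2% and 24.1%. The median level of the synthetases was 81.6 FPKM. Under TPM scaling 5 fell and 9 rose (23.8% and 42.9%, against 12.9% and 31.6% of all rows). For rows of at least 10 FPKM the shares under that scaling were 18.7% and 40.6%.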

How the data were processed

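Polyadenylated RNA of 6 CHO-T libraries (3 with negative control siRNA and 3 with *Xbp1* siRNA, groups and replicate numbers from the sample titles) was sequenced by the authors with a stranded kit. The deposited values are FPKM, 1 table per library, which the authors computed from their alignments. The submitters' processing notes name HISAT2 (2.1.0) and Cuffdiff (2.2.1). The genome build, the annotation and the handling of reads that match several genes are not given in the sources used here, so no coordinates are printed. The study tested raw counts, whereas only FPKM was used here.

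FPKM was tested as log2(FPKM + 0.1) in rows with a mean of at least 0.1 FPKM, with limma (3.58.1, R 4.3.3, moderated variance with a trend, 2 groups) and Benjamini-Hochberg adjustment over all 14361 rows. The pseudocount understates changes of low genes. Of 27873 rows 10274 were at 0 in every library. Genes passed at an adjusted p under 0.05, and were called when the log2 fold change also reached 1 in size, the study's limit. The FPKM files hold no read counts. Among 3065 rows with low values 69.8% were whole multiples of 1 read within 0.05 reads, which gave the relative depths and no counts for a test, and read numbers are given only for *Eif4e1b*.

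Paralog ratios were compared with exact two-sided permutation tests (scipy 1.17.1). Alternatives were other pseudocounts (1 and 0.01), a filter at 1 FPKM or none, median-ratio scaling, quantile normalization, limma without the trend, a replicate block and leaving out each library. TPM scaling, the requirement to pass under 4 scalings and the role sums without their most changed gene were added after the data were seen. The members and lists were chosen with earlier results of these data known. Full values are given for up to 8 eIFs in each direction with the largest changes among those that passed without overlap, for the paralog pairs and for *Eif2s1*, and of the regulators and of the elongation list for up to 4 genes each by the same rule. The test script was checked on simulated data with 200 changed genes. At an adjusted p under 0.05 (limma) it recovered 11.3% of changes of 0.3 on the log2 scale and 79% of changes of 1.5. Many changes of the size seen in the eIFs can thus be missed.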

Additional observations from a re-analysis of the deposited data

How the results depend on the processing

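Of 24 initiation factors that passed the test with limma, 14 kept their direction and stayed past the threshold under every alternative, and 23 kept their direction, the exception being *Eif5a*. The counts were 8 higher and 16 lower. Quantile normalization gave 15 higher and 9 lower with a median of 0.019 on the log2 scale, and scaling to TPM gave 17 higher and 9 lower with a median of 0.042. A filter at a mean of 1 FPKM, which removed *Eif4e1b*, gave a median of −0.060. No member was called (fold limit with adjusted p) under any alternative, though *Eif4e1b*, with few reads, had −1.94 with a pseudocount of 0.01 and −1.19 without *Xbp1* siRNA replicate 3 and did not pass the test. Leaving out 1 library at a time gave 6 to 7 higher, 15 to 18 lower and medians from −0.10 to −0.079. Without the variance trend 6 were higher and 12 lower.

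Same-numbered libraries did not deviate together (r from −0.029 to −0.012), so the numbers were not taken as pairs. A fit with the replicate block gave 8 higher and 19 lower, with a median of −0.093, and 23 of these 27 passed in the fit without it.

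The direction reversed with quantile normalization for *Eif5a* (0.14), *Eif6* (0.031), *Eif2s3* (0.0010), *Eif4e* (0.038), *Eif5b* (0.0065) and *Eif1b* (0.065). With TPM it reversed for *Eif6* (0.0085), *Eif2s3* (0.075), *Eif4e* (0.091), *Eif5b* (0.095) and *Eif1b* (0.096). Leaving out 1 library at a time, *Eif2b1* ran from −0.025 (without *Xbp1* siRNA replicate 3, and −0.022 without control replicate 1) to 0.029, and *Eif4a2* from −0.0038 (without *Xbp1* siRNA replicate 3, and −0.0021 without control replicate 1) to 0.035. Of these only *Eif5a* passed the test. The cause of the reversals was not tested. The ratio differences of the 7 paralog pairs kept their sign in 56 of 56 recomputed values, from other pseudocounts and from leaving out each library. Scaling by a common factor cannot move such a ratio, and ratios after quantile normalization were not among these values. The depth of each library in reads is unknown, which leaves the precision of low genes unstated.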
